A study of Xenopus laevis with 115 samples.

Results

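DMSO-treated endoderm of neurula-stage Xenopus laevis embryos (Nieuwkoop and Faber stage 18) was compared with ectoderm of gastrula-stage embryos (stage 11). The libraries were chosen by their titles in the experiments with SGC-CBP30, a compound that blocks the bromodomains of the acetyltransferases p300 and CBP. They comprised 6 DMSO endoderm libraries and 11 ectoderm libraries, 17 of the 115 samples of the series. Both tissues came from wild-type embryos of in vitro fertilised (IVF) eggs. The endoderm embryos were kept in DMSO, the solvent of the inhibitor, at 23°C, and this began at stage 12. The titles of the ectoderm libraries, made from animal cap tissue, name no treatment. Endoderm of this kind served as the source of nuclei for transfer into eggs, and the IVF ectoderm is the tissue that the transferred nuclei were asked to form. Tissue, stage, DMSO treatment and RNA input (300 ng for endoderm, 400 ng for ectoderm) all differ together between the groups, so their parts in any difference cannot be told apart. Each tissue was sampled in 3 experiments, with 2, 2 and 2 endoderm libraries and 4, 3 and 4 ectoderm libraries. The labels do not say whether libraries of an experiment came from separate embryos, so p-values measure the spread between these libraries, which may be technical in part.

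Endoderm is the innermost germ layer, from which the lining of the gut, the liver, the pancreas and the lungs form. In the frog it derives from the large yolky cells of the vegetal region of the egg. The animal cap is the ectoderm of the gastrula roof, whose cells become epidermis and nervous system, and which can still be turned towards other fates by inducing signals at early gastrula stages.

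Reads were 50 bp long at each end, from poly(A)-selected RNA. Expected counts (the estimated reads of each target sequence) totalled 14657469 to 22070634 in endoderm and 10352221 to 24611268 in ectoderm libraries. The tables list 72076 targets, called transcripts here. Of these, 12952 had no count in any of the 17 libraries, and 26208 passed the expression filter. No table at hand pairs the transcripts with gene symbols, so the labelled tissues could not be checked against their defining markers, and no gene function can be given for any transcript. Transcript levels are given as CPM, computed with edgeR from the rounded counts and TMM factors, which correct for depth and composition. In bulk tissue, more cells that express a transcript and more RNA per cell cannot be told apart.

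The endoderm libraries of experiment 1 stood apart from the other endoderm libraries and lay nearer to ectoderm, as described further on. Results are therefore given with all 6 endoderm libraries and without that pair.

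Most of the measured transcriptome differed between the tissues. With edgeR's quasi-likelihood test and an adjusted p-value under 0.05, 18007 of 26208 transcripts were called (68.7%). Of these, 9208 were higher in endoderm (35.1%) and 8799 were lower (33.6%). A difference of at least 2-fold was called for 6732 higher transcripts (25.7%) and 6456 lower transcripts (24.6%). Without the experiment 1 endoderm, the calls numbered 18829 of 27628 (68.2%). Of these, 9481 were higher (34.3%) and 9348 lower (33.8%), and at least 2-fold differences numbered 7262 higher (26.3%) and 7390 lower (26.7%). Scaling by library size alone called 6903 higher and 11218 lower transcripts, since it moved the median log2 fold change of all tested transcripts to -0.38, against 0.02 with TMM. The near-even split between directions is therefore relative to that median. It also depended on the expression filter, since without it 13880 of 56089 transcripts were called higher and 11475 lower.

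Most of the largest differences, past 32-fold, were transcripts higher in endoderm. At least 4-fold, 3522 transcripts were higher (13.4%) and 2987 were lower (11.4%), and without the experiment 1 endoderm the order turned, with 3877 higher (14%) and 3985 lower (14.4%). At least 8-fold, 1971 transcripts were higher (7.52%) and 1206 were lower (4.6%), and without that pair 2305 were higher (8.34%) and 1925 were lower (6.97%). At least 32-fold, 898 were higher (3.43%) and 207 were lower (0.79%). Without the experiment 1 endoderm the 32-fold counts were 1085 higher (3.93%) and 447 lower (1.62%), so the number of lower transcripts grew by more than 1.5 times. Within experiments 1, 2 and 3 alone, the 32-fold counts were 1534, 1223 and 1516 higher and 567, 1035 and 684 lower. The excess of higher transcripts past 32-fold was present under the other 3 scalings tried, with 903, 844 and 760 higher and 207, 231 and 278 lower for RLE, upper quartile and library size alone. At 8-fold the order turned under library size alone, with 1640 higher and 1717 lower.

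**Figure D1:**
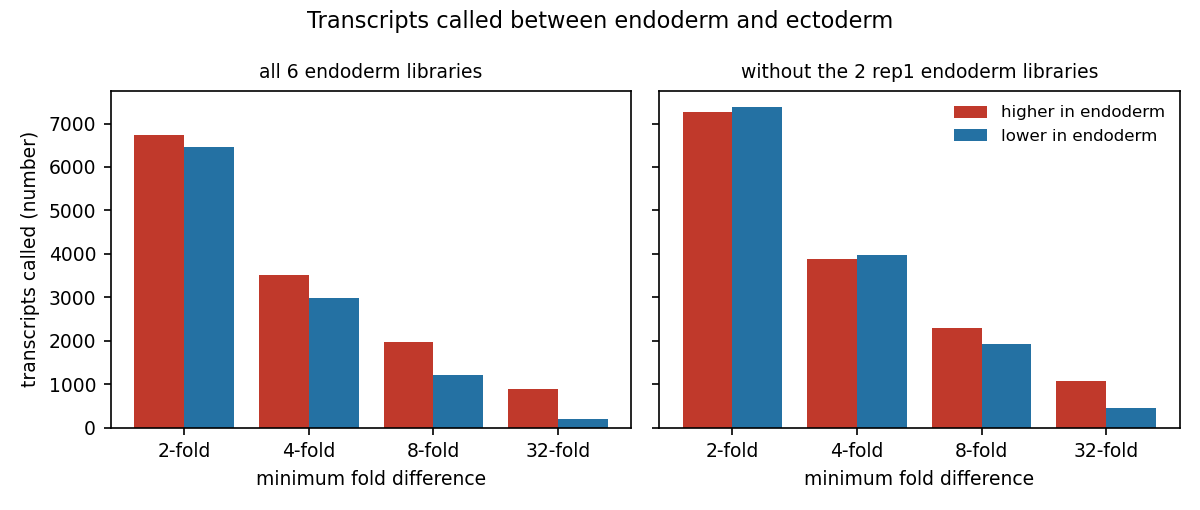
Number of transcripts called by edgeR between stage 18 DMSO endoderm and stage 11 IVF ectoderm (y axis) at 4 minimum fold differences (x axis), with all 6 endoderm libraries (left) and without the 2 of experiment 1 (right). Higher and lower transcripts are nearly equal at 2-fold, and at 32-fold the higher ones number 898 and 1085 while the lower ones number 207 and 447.

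The 898 transcripts that were higher by at least 32-fold were expressed at a median of 24.6 CPM in endoderm and 0.16 CPM in ectoderm. Of these, 220 averaged 100 CPM or more in endoderm, and 27 averaged 1000 CPM or more. The 207 transcripts that were lower by at least 32-fold had a median of 0.0511 CPM in endoderm and 4.29 CPM in ectoderm, and 2 of them averaged 1000 CPM or more in ectoderm. By these medians the lower set was less abundant than the higher set, each in its higher tissue. The filter needed every endoderm library for endoderm-only transcripts but only part of the ectoderm libraries for ectoderm-only ones. This favours rarer transcripts in the lower set, so the order cannot be read as a trait of the tissues. The lower set's endoderm median was below 3 counts, which are 0.163 to 0.258 CPM per endoderm library. Fitted folds at such levels depend on the small count that edgeR adds. Of the higher transcripts, 850 (94.7%) had every endoderm library above every ectoderm library, and 891 were also called higher without the experiment 1 endoderm. Of the lower transcripts, 154 (74.4%) had no overlap between the tissues, and all 207 were called lower without that pair. The filter made overlap less likely in the higher set, and the 32-fold limit made it less likely in both. The shares without overlap are therefore not matched between the sets. Of all 18007 calls, 16540 were kept in the same direction without the pair. Both fits share the remaining libraries, so these counts are no independent support. Over all transcripts tested, 4687 (17.9%) had every endoderm library above every ectoderm library and 4449 (17%) had every endoderm library below. Without the experiment 1 endoderm these were 6685 (24.2%) and 5932 (21.5%) of 27628, a comparison with fewer libraries to separate.

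A stricter description counted transcripts on in every library of one tissue, at 1 CPM or more, and under 0.1 CPM in every library of the other. In this sense 107 transcripts (0.408%) were on in endoderm and off in ectoderm, while 9 (0.0343%) were on in ectoderm and off in endoderm. Without the experiment 1 endoderm there were 186 (0.673%) and 24 (0.0869%). By this rule, transcripts on only in endoderm outnumbered those on only in ectoderm in both versions. The rule covered more ectoderm than endoderm libraries, so its demands on the tissues were unequal, and it was applied with TMM scaling only.

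Direction was also counted by abundance and target length. Among 104 transcripts averaging over 1000 CPM across the 17 libraries, 30 were higher by at least 2-fold in endoderm (28.8%, against 25.7% of all tested) and 10 were lower (9.62%, against 24.6%). Without the experiment 1 endoderm there were 29 and 9 among 101, and with library size alone 20 and 15 among 100. The order was reversed among the 2986 transcripts averaging under 1 CPM, with 446 higher (14.9%) and 941 lower (31.5%). From 1 to 10 CPM, 29.4% were higher and 25% lower. From 10 to 100 CPM these were 24.8% and 23.5%, and from 100 to 1000 CPM 24.8% and 17.8%. These lower levels were counted with TMM scaling, the expression filter and all endoderm libraries only. The filter asks for expression in as many libraries as the smaller group holds. A transcript present only in endoderm had to pass in all 6, and one present only in ectoderm in 6 of 11. This favours ectoderm-high transcripts among the rarest, so the reversed order cannot be read as a trait of the tissues. Without the filter, 11859 transcripts of all levels were higher by at least 2-fold and 9343 lower. Of 2492 targets of up to 500 bases, 498 (20%) were higher and 774 (31.1%) lower. Of 3194 targets over 4000 bases, 952 (29.8%) were higher and 665 (20.8%) lower. The order for long targets turned under library size alone, with 721 higher and 923 lower. Short targets were more often lower under each of the 4 scalings and without the experiment 1 endoderm. All of these settings used the same filter rule, and length was not counted within levels. A part of the filter in the order for short targets was therefore not tested. Targets listed by a gene identifier only, with no mRNA model, were called in 164 of 286 cases (57.3%, against 68.7% of all tested), 80 higher and 84 lower.

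A pair of transcripts in each direction was taken for a closer look, by a rule that picked the largest fold change and the most abundant transcript among those without overlap between the tissues. These came from 3454 candidates that were higher and 2921 that were lower. XBmRNA47821, with a target of 1856 bases, was the most abundant transcript higher in endoderm. It was measured at 16860 and 19380 CPM in the endoderm of experiment 1, at 19020 and 20530 CPM in experiment 2 and at 32260 and 24010 CPM in experiment 3, against a lowest, median and highest value of 2823, 3787 and 6145 CPM in the 11 ectoderm libraries. Every endoderm library was above every ectoderm library, and experiment 1 was not set apart from experiment 2 for this transcript. The log2 fold change was 2.50 (SE 0.18, edgeR adjusted p 1e-09). Within experiments 1, 2 and 3 it was 2.45, 1.86 and 3.07, and this variation passed the interaction test (edgeR adjusted p 0.0136). In ectoderm the 3 libraries of experiment 2 were the highest, at 4657, 5596 and 6145 CPM.

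XBmRNA9574 (gene XBXL10_1g5147, 1770 bases) had the largest fitted rise, and its size rested on 1 library. It was at 24.5 and 3183 CPM in the endoderm of experiment 1, at 2.95 and 0.944 CPM in experiment 2 and at 2.19 and 21.8 CPM in experiment 3. In ectoderm it ran from 0 to 0.131 CPM with a median of 0, which is at most 1.5 expected counts in a library. The tissues did not overlap, but the endoderm values themselves spanned 0.944 to 3183 CPM. The fitted log2 fold change was 14.0 (SE 1.85, edgeR adjusted p 2.2e-06), and it was 8.33 without endoderm library 2 of experiment 1 and 7.77 without both endoderm libraries of that experiment. With so few ectoderm counts these fitted values depend on the small count that edgeR adds, and they are no bound on the difference. The DESeq2 Wald test gave this transcript no adjusted p.

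That library held other transcripts of this kind. Among the 6732 transcripts at least 2-fold higher in endoderm, 36 had more than 90% of their summed endoderm CPM in a single library, and this was endoderm library 2 of experiment 1 for 35 of them and library 1 of that experiment for the other. Among the 898 past 32-fold there were 13, all in library 2 of experiment 1. Among the 6456 transcripts lower in endoderm, 0 had more than 90% of their summed ectoderm CPM in a single ectoderm library. The ectoderm share was taken over 11 libraries and the endoderm share over 6, so the counts for the tissues are not matched.

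XBmRNA8481 (gene XBXL10_1g4576, 2717 bases) had the largest fitted fall. It had 0 expected counts in all 6 endoderm libraries, against a lowest, median and highest value of 24.6, 50.2 and 67.6 CPM in ectoderm, with a mean of 46.2 ± 16.3 CPM (SD, n = 11). A count of 0 allows up to 3 counts, which is 0.163 to 0.258 CPM per endoderm library by depth, for counting error only. Endoderm was therefore at least 179-fold below the ectoderm mean, taking the highest of these floors (edgeR adjusted p 4.39e-10). The bound is smaller against the lowest ectoderm library. Endoderm of CBP30-treated embryos, which is no part of the comparison, had 0 to 1.24 TPM, a level scaled for depth and length, in 5 libraries. Ectoderm had 12 to 30.9 TPM.

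XBmRNA74767 (2451 bases) was the most abundant transcript lower in endoderm. It was at 119.6 and 319 CPM in the endoderm of experiment 1, at 30.6 and 18.9 CPM in experiment 2 and at 11.0 and 55.7 CPM in experiment 3, against a lowest, median and highest value of 1670, 2485 and 5113 CPM in ectoderm. The tissues did not overlap, and the experiment 1 endoderm held the 2 highest endoderm values. The log2 fold change was -4.93 (SE 0.68, edgeR adjusted p 3.67e-06), and -6.58 without the experiment 1 endoderm. Within experiments 1, 2 and 3 it was -3.08, -7.48 and -6.24, with an interaction adjusted p of 0.000717 by edgeR. Endoderm of CBP30-treated embryos had 4.34 to 8.53 TPM in 5 libraries, beside 3.99 to 136.7 TPM in DMSO endoderm.

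**Figure D2:**
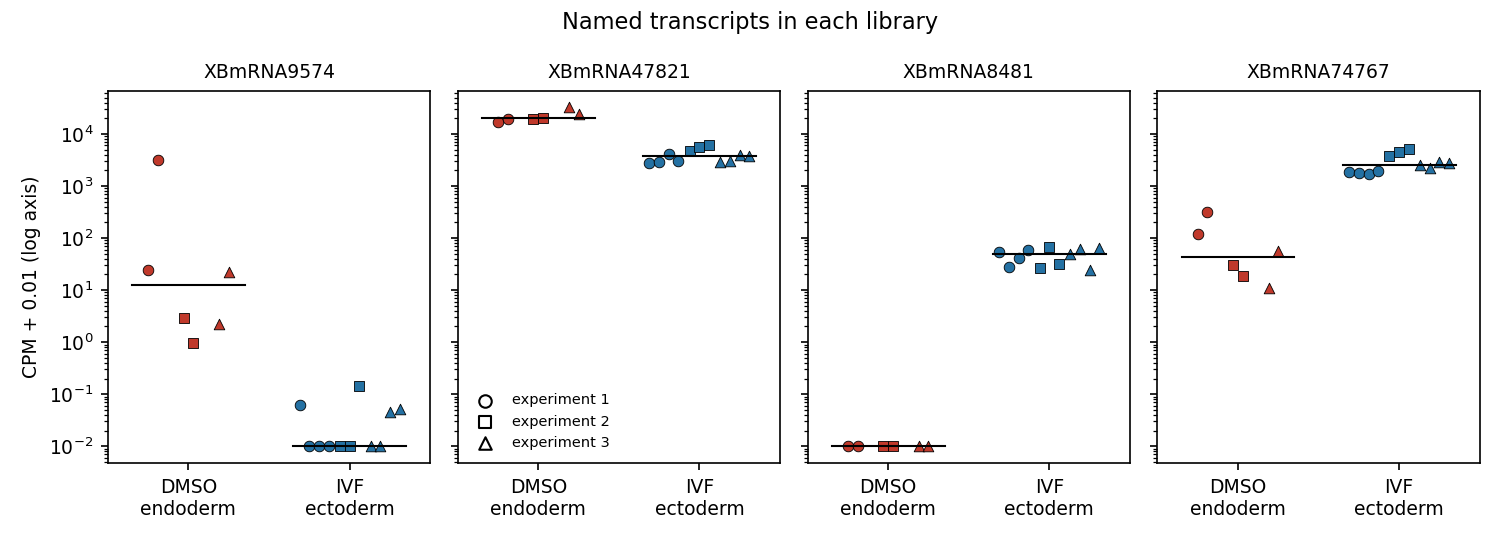
Level of 4 transcripts in each library, as CPM plus 0.01 on a log axis, in DMSO endoderm (red) and IVF ectoderm (blue); the symbol gives the experiment and the bar the median. XBmRNA47821 lies at 16860 CPM or more in every endoderm library, XBmRNA9574 has 1 endoderm library at 3183 CPM, XBmRNA8481 is at 0 in all 6 endoderm libraries, and XBmRNA74767 is highest within endoderm in experiment 1.

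The position of each library between the tissues was measured on lists made without its own experiment. A list held the transcripts called by at least 8-fold between the tissues in the other experiments, and a library's score was the mean log2 CPM over the list. On the 1748 ectoderm-high transcripts found in experiments 2 and 3, the experiment 1 DMSO endoderm scored 0.02 and -0.05, while the ectoderm of the same experiment scored 2.00 to 2.21. CBP30 endoderm of the same experiment scored -0.97 and -0.56 on the same list. DMSO endoderm scored -0.92 and -0.99 in experiment 2 and -0.91 and -0.75 in experiment 3, each on its own list of 1242 and 1305 transcripts. The experiment 1 DMSO endoderm therefore held more of the ectoderm-high transcripts than the CBP30 endoderm processed under the same experiment number.

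The endoderm-high transcripts were less abundant in the same pair than in the CBP30 endoderm of experiment 1. On 2273 such transcripts, the experiment 1 DMSO endoderm scored 3.202 and 2.96, the CBP30 endoderm 3.84 and 3.83, and the ectoderm -0.57 to -0.49. DMSO endoderm scored 3.27 and 3.35 in experiment 2 and 3.90 and 4.02 in experiment 3, on lists of 2300 and 2007 transcripts. On these lists CBP30 endoderm scored 3.19 and 3.24 in experiment 2 and 3.545 in experiment 3. DMSO endoderm thus scored above CBP30 endoderm in experiments 2 and 3 and below it in experiment 1. The DMSO scores of experiments 1 and 2 were close, but on different lists, so their levels cannot be set against each other. Over endoderm-high transcripts past 32-fold, again from the other experiments, the summed CPM was 79040 and 68530 in the experiment 1 DMSO endoderm. It was 166800 and 161800 in experiment 2 and 175000 and 144000 in experiment 3. CBP30 endoderm of experiment 1 had 165900 and 203800, and the ectoderm libraries had 859 to 1882. With TMM factors CPM does not add up to the same total in each library, so these sums are no shares of counts. All 6 endoderm libraries were thus far from ectoderm on this sum, and the pair of experiment 1 was the lowest of the 6. The ranking compares different lists, of 1074, 1054 and 909 transcripts for experiments 1, 2 and 3. Those for experiments 2 and 3 were made with the experiment 1 endoderm included.

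**Figure D3:**
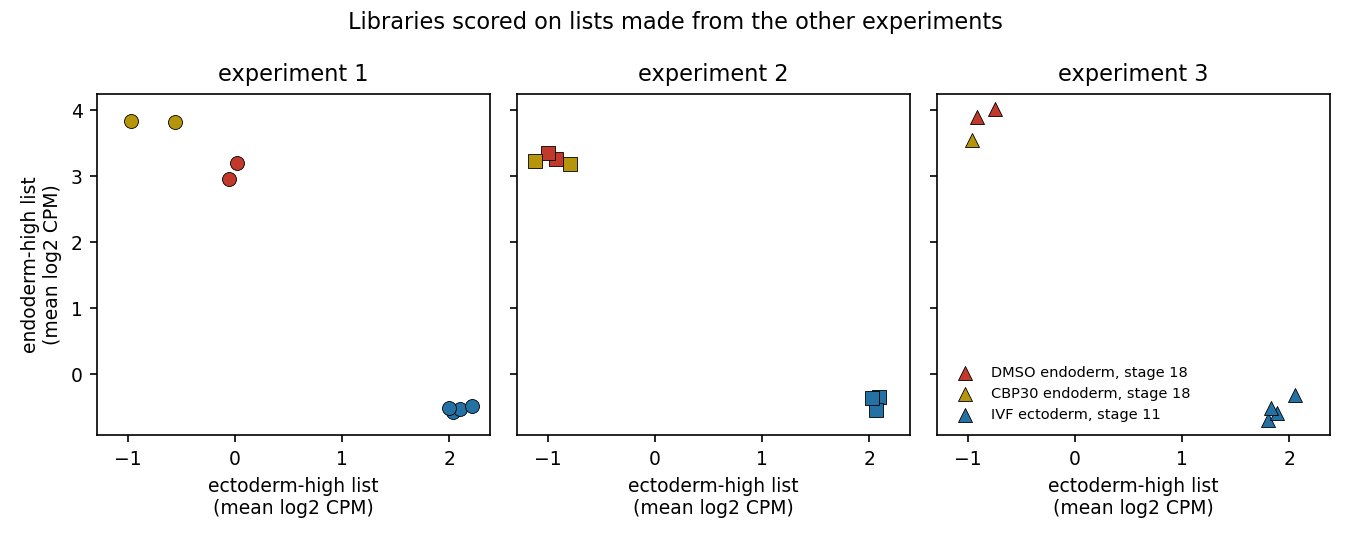
Mean log2 CPM of each library over endoderm-high transcripts (y axis) and ectoderm-high transcripts (x axis), with lists made from the other experiments, for DMSO endoderm (red), CBP30 endoderm (gold) and IVF ectoderm (blue) in experiments 1 to 3. DMSO endoderm of experiment 1 lies at 0.02 and -0.05 on the x axis, to the right of the DMSO endoderm of the other experiments.

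The level of the ectoderm-high transcripts in endoderm was also set against ectoderm of the same experiment. Over ectoderm-high transcripts past 32-fold, the summed CPM in DMSO endoderm was 12.15% and 7.97% of the mean ectoderm sum of its own experiment in experiment 1, 1.46% and 1.34% in experiment 2 and 1.98% and 3.155% in experiment 3. It was 1.58% and 2.49% in the CBP30 endoderm of experiment 1. Single transcripts of the 8-fold list with at least 5 CPM in ectoderm were at a median of 14.3% and 13.3% of the ectoderm level in experiment 1 DMSO endoderm. CBP30 endoderm of experiment 1 had 6.135% and 8.44% on the same list, and the other 4 DMSO libraries had 5.36% to 6.62%. These 4 were measured on other lists, of 528 and 524 transcripts against 779, made with the experiment 1 endoderm included. The source of the ectoderm-high signal in the experiment 1 DMSO endoderm was not tested.

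The pair was set apart because it lies towards ectoderm, so the values without it describe that choice and support nothing further. Of the transcripts called by at least 2-fold with all 6 libraries, 71.0% of the higher and 61.0% of the lower ones had a larger fold change without the pair. Leaving out the endoderm of experiment 2 gave 43.4% and 35.3%, and leaving out that of experiment 3 gave 50.9% and 35.9%. Without the pair, 7262 transcripts were higher by at least 2-fold, and 6866 of them had also been tested with all 6 libraries. Over these, the mean of the pair lay at a median of 74% of the distance from the ectoderm mean to that of the other endoderm. For 7010 of the 7390 lower transcripts the value was 78.2%. The same values for the experiment 2 pair were 105% and 102%, and for the experiment 3 pair 103% and 100%, with the experiment 1 libraries among the other endoderm in both cases. Of the 26208 transcripts tested with all 6 libraries, 16558 were called both with and without the pair, 16540 of them in the same direction, while 1449 were called only with it and 1493 only without it. A further 778 were called without the pair among transcripts that had not passed the filter with all 6. The 18 transcripts called in opposite directions were all higher with the pair, and their highest endoderm library was library 2 of experiment 1 for 16 and library 1 for 2.

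Spread between libraries was described for each tissue. The median SD of a transcript, on the log2(CPM + 0.5) scale, was 0.498 over the 6 endoderm libraries, 0.383 over the 4 of experiments 2 and 3, and 0.349 over the 11 ectoderm libraries. A median SD over few libraries runs low, so these values are not matched for the number of libraries. The test between the 3 experiments called 127 of 26951 transcripts within endoderm (0.471%), where 7377 had an unadjusted p under 0.05 (27.4%), and 9551 of 26673 within ectoderm (35.8%; edgeR). These counts are not comparable in size, because 3 residual degrees of freedom were left in endoderm and 8 in ectoderm. The endoderm count rested on single libraries: leaving out library 1 of experiment 1 gave 831 calls, leaving out library 1 or 2 of experiment 3 gave 432 and 701, and leaving out library 2 of experiment 1 or library 1 or 2 of experiment 2 gave 0. In these last 3 fits edgeR found 6173, 3876 and 4358 transcripts at an unadjusted p under 0.05.

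The tissue difference itself varied by experiment for 10042 of 31685 transcripts (31.7%) in edgeR's interaction test. Leaving out experiment 1 of both tissues gave 4001 of 29777. That test had fewer libraries, so the 2 counts are not comparable in size. Variation between experiments within 1 tissue alone also enters the interaction test. Fitted alone, experiments 1, 2 and 3 called 16111 of 27975 (57.6%), 16019 of 26537 (60.4%) and 18151 of 28994 transcripts (62.6%). Of 24702 transcripts tested in all 3, 69.4% had the same sign of difference in each. A common set of 8527 (34.5%) was called in the same direction in all 3, with 4491 higher and 4036 lower in endoderm. Another 1074 were called in opposite directions in at least 2 experiments.

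Endoderm libraries spread their counts over fewer transcripts than ectoderm libraries. The number of targets that together held 50% of all counts was 747 and 688 in the endoderm of experiment 1, 644 and 622 in experiment 2 and 538 and 634 in experiment 3, against 603 to 1096 in ectoderm with a median of 1000. The lowest ectoderm library, library 1 of experiment 3, lay within the endoderm range, so the groups overlapped. The means were 646 ± 69.8 in endoderm (SD, n = 6) and 931 ± 167 in ectoderm (SD, n = 11; two-sided exact permutation p 0.00259, adjusted 0.00808 over 5 such measures). Without the experiment 1 endoderm the endoderm mean was 610 ± 48.5 (exact permutation p 0.00586, adjusted 0.0293). The permutations shuffled libraries without regard to experiment. Ectoderm means were 1053, 789 and 914 in experiments 1, 2 and 3, so libraries of an experiment may not be independent. The p-values of this and the other whole-library measures may therefore be too small.

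At an equal depth of 10000000 counts, 34441 ± 956 targets were expected to have a count in endoderm and 35905 ± 599 in ectoderm (SD, n = 6 and 11; exact permutation p 0.00323, adjusted 0.00808; without the experiment 1 endoderm p 0.0147, adjusted 0.0366). The 100 most abundant targets took 26.7% ± 1.42 of counts in endoderm and 21.4% ± 4.16 in ectoderm (SD, n = 6 and 11; exact permutation p 0.012, adjusted 0.0149; without the experiment 1 endoderm p 0.0293, adjusted 0.0488). The first of these measures is one of breadth and the second of concentration, and both ran in the direction of a narrower endoderm library. The 10 most abundant targets took 8.43% ± 0.601 in endoderm and 6.65% ± 4.08 in ectoderm, a difference that did not pass (exact permutation p 0.428). Ectoderm library 1 of experiment 3 had 18.7% there, and without it the exact permutation p was 0.00025. Targets without an mRNA model took 1.51% ± 0.331 in endoderm and 2.18% ± 0.514 in ectoderm (exact permutation p 0.00856, adjusted 0.0143), and this call was lost without the experiment 1 endoderm (exact permutation p 0.0689, adjusted 0.0861).

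**Figure D4:**
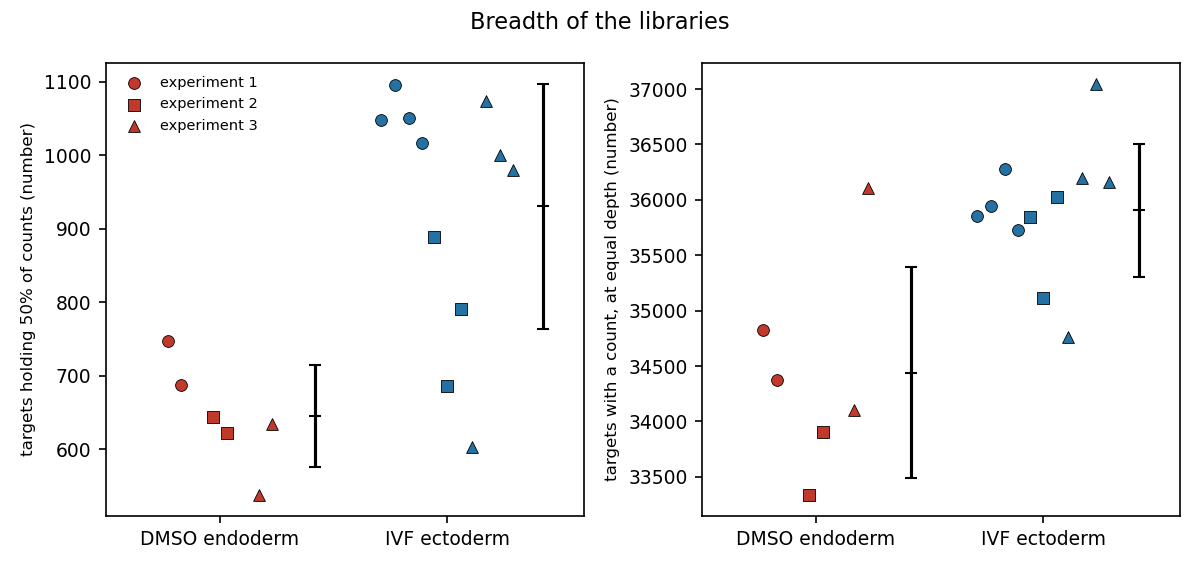
Number of targets that hold 50% of a library's counts (left) and number of targets expected to have a count at a depth of 10000000 counts (right), in DMSO endoderm (red) and IVF ectoderm (blue); symbols give the experiment, bars the mean and SD, and the y axes do not start at 0. Endoderm lies at 538 to 747 on the left, where 1 ectoderm library of experiment 3 is at 603.

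The comparison was repeated in libraries that share no sample with it. In experiment 1 of the experiments with the inhibitor A-485, 2 endoderm libraries of stage 18 with the control compound A486 were set against 4 libraries of stage 11 IVF ectoderm. The cell type label of that endoderm reads ectoderm while its tissue label and title name endoderm. That comparison called 10588 of 22089 transcripts (47.9%). Its tables hold another set of target sequences, and 1777 transcripts with the same identifier and length were tested in both. Of these, 946 (53.2%) were called by at least 2-fold in the DMSO comparison and 716 (40.3%) in the A486 comparison. The lists shared 520 transcripts in the same direction, 55.0% of the DMSO list and 72.6% of the A486 list, and 10 in opposite directions. XBmRNA8481 was also lower in A486 endoderm, with a log2 fold change of -4.16 (SE 1.36, edgeR adjusted p 0.0397). This fitted fall was smaller than the bound for DMSO endoderm, at least 7.49 on the log2 scale below the ectoderm mean. XBmRNA9574 did not pass the expression filter in the A486 comparison.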

How the data were processed

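The authors' deposited tables give expected counts, TPM and, as other values, the length of each target. kallisto 0.48 is named in the submitters' processing notes; the genome build is not given in the sources used here. Expected counts were rounded and tested in R 4.3.3 with edgeR 4.0.16 (filterByExpr, TMM, quasi-likelihood F test, two-sided, Benjamini-Hochberg over all transcripts tested; called at an adjusted p under 0.05). Fold changes are endoderm over ectoderm. The SE beside a log2 fold change is its absolute value divided by the square root of the F statistic, and was not estimated by the fit itself. TPM was used only for levels in single libraries. Measures of whole libraries were compared by exact permutation in scipy 1.17.1, without regard to experiment. Alternatives were RLE, upper quartile and library-size scaling, the DESeq2 1.42.0 Wald test, other count filters, each experiment alone, an experiment term and leaving out libraries. No per-sample column of another series was used. Scripts were tested on simulated counts, where recovery of 2-fold tissue changes missed the limit first set and passed a lower one set after that run. Libraries of a tissue differed by more than sampling noise. Depth was 10352221 to 24611268 counts per library, and floors cover counting error only. The 4 named transcripts met these conditions: called with and without the experiment 1 endoderm, no overlap, at least 10 CPM in the higher tissue, then the largest fold change or, past 2-fold, the highest level. The libraries, lists and rules were chosen with earlier results of these data known. Sums per gene and a test of unequal change among transcripts of a gene were not run, because the identifiers do not name the gene and only 39816 of 72076 could be paired with one.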

Additional observations from a re-analysis of the deposited data

Results flagged for a closer look

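Over the 6 endoderm libraries, 10 measures were checked for a single library far from the others, and 3 had one. Chance gives about 1 in 20 for a measure not chosen by its values, which does not cover XBmRNA9574, since it was named for a fold change that this library makes. XBmRNA9574 was at 3183 CPM in endoderm library 2 of experiment 1, where the next highest was 24.5 CPM. XBmRNA74767 was at 319 CPM in the same library, where the next highest was 119.6 CPM. On the log2(CPM + 0.5) scale the gap above the next library was 0.629 of the range for XBmRNA9574 and 0.294 for XBmRNA74767. This passes Dixon's limit for XBmRNA9574 and misses it for XBmRNA74767, which stands out only on the linear scale. The 100 most abundant targets took 29.4% of counts in endoderm library 1 of experiment 3, where the next highest endoderm library had 26.7%.

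The difference between the tissues varied by experiment for both of the most abundant named transcripts, in edgeR's interaction test. For XBmRNA47821, higher in endoderm, the adjusted p was 0.0136. For XBmRNA74767, lower in endoderm, it was 0.000717. The causes were not tested.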

How the results depend on the processing

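In the fits listed here no named transcript turned its direction, which the rule that picked them made likely. The orders of higher and lower counts that turned with the scaling or without the experiment 1 endoderm are given with those counts. The count of calls moved by more than 1.5 times with a minimum of 10 counts in every library, to 11675 of only 16191 transcripts tested. Of the 11675 calls, 6955 were at least 2-fold. Without a filter on low counts the 2-fold count was 21202 of 56089 tested, with 11859 higher and 9343 lower. These settings test fewer or more transcripts. The minimum of 10 counts gave 1091 calls of 18931 tested between experiments within endoderm. The interaction count was 4001 of 29777 with experiments 2 and 3 only, a fit with fewer libraries. Leaving out 1 library at a time gave 17515 to 18378 calls between the tissues, 12910 to 13795 of at least 2-fold, 0 to 831 between experiments within endoderm, 7770 to 9453 within ectoderm and 7298 to 11032 in the interaction test. Without the endoderm of experiment 2 or 3 the calls numbered 17712 and 17356. Leaving out ectoderm libraries, leaving out any library in the tests between experiments and the interaction test, leaving out the endoderm of experiment 2 or 3, the 32-fold and 8-fold scaling checks and the whole-library checks were added after seeing the data.

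Same-numbered libraries of the tissues had correlations of -0.0916, -0.0893 and -0.0928 in their deviations from the group means. Differently numbered ones had -0.0639 to 0.159. With 3 experiments these values cannot decide whether the experiment numbers pair the tissues. With the experiment as a replicate block 18294 transcripts were called, 17576 of them shared in the same direction. The DESeq2 Wald test called 18381, 17892 of them shared, and gave no adjusted p for 187. The 4 named transcripts kept their calls wherever an adjusted p was given, at 4.84e-08 to 0.00487 for XBmRNA9574, 2.02e-33 to 0.000148 for XBmRNA47821, 7.29e-40 to 0.000201 for XBmRNA8481 and 7.86e-21 to 0.000754 for XBmRNA74767. Sums per gene and the test among transcripts of a gene were not run. Depth limits statements on transcripts near 3 counts per library.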
